A study of Caenorhabditis elegans with 5 samples.

Results

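The genes described here are the msp genes and the other families named for sperm in Caenorhabditis elegans, a set of 74 genes out of 42048 in the table. They were taken by name alone: every gene called msp, ssp, ssq, sss, msd or spe followed by a number. The set holds 31 msp, 12 ssp, 4 ssq, 2 sss, 4 msd and 21 spe genes. At least 1 read was counted for 69 of them, and 51 were measured, meaning that 2 or more of the 5 libraries had a normalised count of at least 10. The measured genes are 27 msp, 5 ssp, 4 ssq, 2 sss, 2 msd and 11 spe genes. No read was counted for msp-32, msp-58, msp-74, spe-29 or spe-38, and 18 further genes stayed below the minimum.

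Polyadenylated RNA came from cells labelled as neurons, which were sorted by fluorescence from dissociated animals on day 1 of adulthood after growth at 16 °C. Wildtype animals gave 2 libraries and thoc-5(wy822) mutants gave 3. All 5 carry edIs6, which is known as an integrated transgene that puts GFP under unc-119 sequence in neurons. THOC-5 belongs to the THO complex, which packages new messenger RNA for export, and the comparison asks which transcripts differ when it is mutated. The msp genes are known for expression in the male germ line and are not known as neuronal genes. In bulk samples, fewer cells of a type and less RNA per cell cannot be told apart.

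Major sperm protein (MSP), encoded by the msp genes, is the main cytoskeletal protein of nematode sperm. It assembles into the filaments on which the amoeboid sperm crawl, and it is also released by sperm as the signal that restarts oocyte meiosis and makes the gonadal sheath contract. The msp transcripts are made in spermatocytes, since mature sperm no longer transcribe. A hermaphrodite makes its sperm before adulthood, stores them in the spermatheca and then makes oocytes. The ssp, ssq and sss genes are sperm-specific families of classes P, Q and S, the msd genes encode proteins with an MSP domain, and the spe genes were named from mutants with defective sperm.

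Depth was 10.3 and 10.2 M reads in wildtype replicates 1 and 2, and 7.36, 6.80 and 8.69 M in mutant replicates 1, 2 and 3. The mutated gene, listed as Y32H12A.2, had normalised counts (reads divided by a size factor of the library) of 154 and 122.2 in wildtype, compared with 78.3, 34.6 and 12.7 in the mutant (log2 fold change -2.03, SE 0.90, limma adjusted p = 0.148, with fold changes throughout as mutant minus wildtype), so its level is only a partial check of the labels. The 23 pan-neuronal genes listed as markers took 0.762% and 0.0663% of the reads in wildtype replicates 1 and 2, and 3.07%, 2.00% and 3.44% in the mutant libraries. The label of neurons thus rests on far fewer marker reads in wildtype replicate 2 than in any other library. The wildtype libraries also stood apart from each other in the sperm genes, and each result below is given with that in view.

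RNA of the msp, ssp, ssq, sss and msd families was lower in the thoc-5 mutant libraries than in wildtype throughout. These 53 genes took 0.0449% and 0.204% of the reads in wildtype replicates 1 and 2, against 0.0116%, 0.00378% and 0.0115% in mutant replicates 1, 2 and 3. The 95% intervals, which cover counting error only, were 0.0436% to 0.0462% in wildtype replicate 1 and 0.0108% to 0.0124% in mutant replicate 1. Summed normalised counts were 20.4 times higher in wildtype on average, and 6.28 times higher without wildtype replicate 2. Over all genes the same sums were 1.37 and 1.24 times higher in wildtype, so these ratios are larger than those of the shares. Each of the 50 genes with a read had the higher mean in wildtype. For all 40 measured genes both wildtype libraries lay above all 3 mutant libraries, a pattern shown by 26.5% of all 13787 genes tested. Of the 40, 8 had reached the minimum through the wildtype libraries alone and so had to differ.

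**Figure D1:**
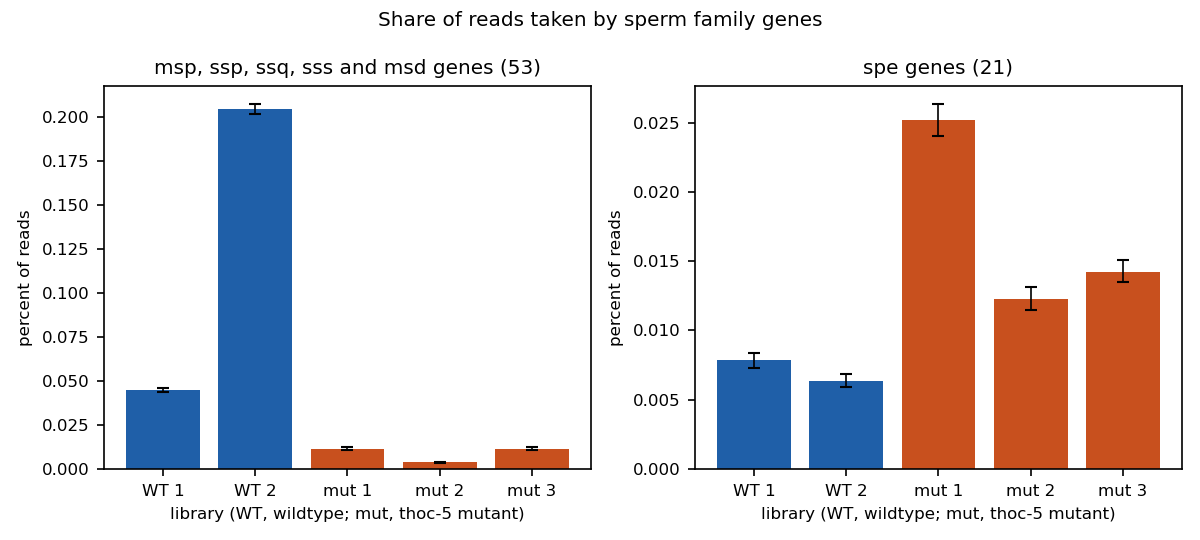
Share of reads taken by the 53 msp, ssp, ssq, sss and msd genes (left) and by the 21 spe genes (right) in each library. Bars are the percent of all reads counted on genes, and error bars are exact 95% intervals of the counting error. The left bars are higher in both wildtype libraries than in any mutant library, and 0.204% in wildtype replicate 2 stands above the rest, while the right bars run from 0.00637% to 0.0252% and are higher in the mutant libraries through spe-15, without which they would run from 0.00394% to 0.00631% and overlap.

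With limma on log2(normalised count + 1), 12 of the 51 measured genes fell and 1 rose at an adjusted p below 0.05. Among all genes tested, 5.92% fell and 6.97% rose. The genes that fell are msp-3, msp-19, msp-31, msp-40, msp-50, msp-51, msp-53, msp-59, msp-65, msp-152, ssq-4 and sss-1, and the gene that rose is spe-15. Their adjusted p-values ran from 0.0385 to 0.0488, all near the threshold. The median log2 fold change was -4.03 over the 51 measured genes, against 0.13 over all genes tested. By family the medians were -4.27 for msp, -4.06 for ssp, -3.74 for ssq, -3.90 for sss, -4.08 for msd and -0.42 for spe.

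The count of calls depended on the test and on single libraries. DESeq2 on the recovered reads called 39 of these genes lower and 1 higher, against 11.6% and 15.4% of all genes. The authors' deposited table, which covers more genes, gives 43 of the 74 lower and 1 higher, against 10.7% and 13.4%. Of those 43, 39 were among the 51 measured here. edgeR called 0 members and 0.0% of all genes. Its unadjusted p was below 0.05 for 40 of the 51 members and 3869 of the 13787 genes tested. Leaving out wildtype replicate 1 gave 19 lower, while leaving out wildtype replicate 2 or any mutant library gave 0 in limma, over all genes as well, and this applies to each limma call named below. Without wildtype replicate 2 the median log2 fold change of the 51 genes was -2.87, and without wildtype replicate 1 it was -5.23.

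**Figure D2:**
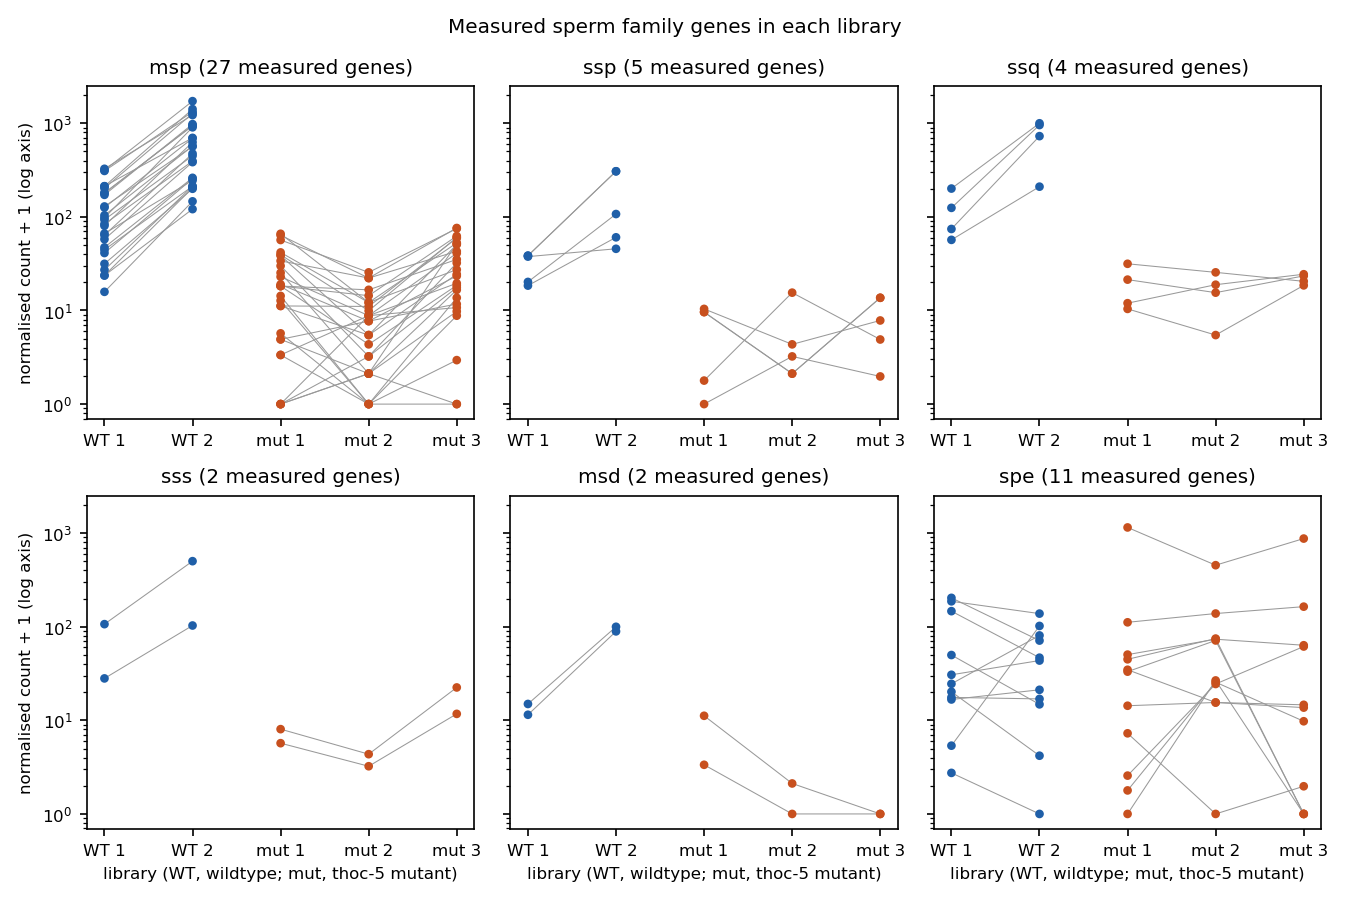
Normalised count plus 1 (log axis) of every measured gene in each library, by family; each line joins the values of 1 gene within a group. In the msp, ssp, ssq, sss and msd panels both wildtype libraries (blue) sit above the mutant libraries (orange) for all 40 genes, and wildtype replicate 2 is the higher of the wildtype libraries, whereas the groups overlap in 8 of the 11 spe genes.

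In wildtype the msp genes took most of the reads of the set. Their share of reads was 0.0361% and 0.160% in wildtype against 0.00938%, 0.00258% and 0.00968% in the mutant libraries. The gene with the highest level was msp-51 (WBGene00003444, WBcel235 chromosome IV, 5294957 to 5295340, minus strand), with normalised counts of 314 and 1722 in wildtype against 55.6, 24.6 and 74.1 in the mutant. Its groups did not overlap, and its log2 fold change was -3.95 (SE 0.88, limma adjusted p = 0.0437).

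Next in level was msp-19 (WBGene00003426, chromosome IV, 5260589 to 5260972, plus strand), at 309 and 1323 in wildtype against 62.7, 21.2 and 41.9 in the mutant. It fell by 4.03 on the log2 scale (SE 0.82, limma adjusted p = 0.0403). On the same chromosome, msp-59 (WBGene00003452, chromosome IV, 5312728 to 5313111, minus strand) stood at 325 and 1223 in wildtype, compared with 32.9, 21.2 and 75.1 in the mutant, and fell by 4.04 (SE 0.83, adjusted p = 0.0406). In these 3 genes even the lower wildtype library held more than 4 times the normalised count of the highest mutant library.

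On chromosome II, msp-31 (WBGene00003429, 4916179 to 4916562, minus strand) had 178 and 947 in wildtype against 17.2, 15.6 and 34.1 in the mutant. The log2 fold change was -4.23 (SE 0.89, limma adjusted p = 0.0418). For msp-152 (WBGene00003470, 4933027 to 4933410, plus strand) the values were 201 and 1271 against 40.7, 11.2 and 26.3, with a log2 fold change of -4.40 (SE 0.98, adjusted p = 0.0439). Further along, msp-50 (WBGene00003443, 5199797 to 5200180, plus strand) was at 124.7 and 691 against 17.2, 3.35 and 17.5, a log2 fold change of -4.70 (SE 1.11, adjusted p = 0.0459). Each of the 3 was higher in wildtype replicate 2 than in replicate 1 and lowest in mutant replicate 2.

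Among measured genes with a mean of 50 or more, the largest falls in log2 fold change were those of msp-81, msp-65 and msp-56. The first, msp-81, stood at 65.4 and 244 in wildtype against 0, 2.23 and 16.6 in the mutant, which gave -5.05 (SE 1.45) and did not pass the test (adjusted p = 0.0616). For msp-65 the values were 96.8 and 904 against 3.92, 6.70 and 22.4, and it fell by 4.95 (SE 1.23, limma adjusted p = 0.0482). The gene msp-56 had 56.7 and 384 against 0, 7.81 and 18.5, giving -4.74 (SE 1.56, adjusted p = 0.0795). Because a mutant library at 0 weighs heavily on the log scale, the ratio of reads per size factor gives another view: 24.6 for msp-81, 43.3 for msp-65 and 25.1 for msp-56, with counting intervals of 15.5 to 41.4, 30.8 to 63.0 and 16.9 to 38.9. These ratios pool both wildtype libraries, and replicate 2 held most of the wildtype reads. Without wildtype replicate 2 the log2 fold changes were -4.11 for msp-81, -3.35 for msp-65 and -3.37 for msp-56.

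The other 18 measured msp genes had log2 fold changes from -5.02 (msp-78) to -3.14 (msp-55). Below the minimum, msp-63 had 2.62 and 4.25 in wildtype against 0 in every mutant library, 7 reads against none. Its wildtype level was at least 3.57 times higher, taking a floor of 3 reads over the mutant group.

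The msp genes lie in 3 groups along the genome, which allowed their levels to be compared between genes of equal length. In the WBcel235 annotation 28 of the 31 have a coding exon of 384 bases, and 27 of these 28 lie within 50 kb of another gene of the set. The group on chromosome II (4785898 to 5810330) holds 11 such genes, the first on chromosome IV (5055631 to 5316906) holds 8 and the second on chromosome IV (9689015 to 10143740) holds 9. The 3 shorter msp genes, msp-32, msp-58 and msp-74, are those with no read.

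In every library the first chromosome IV group had the highest median level and the second the lowest. Median normalised counts of the first were 211 and 1079 in wildtype, compared with 35.6, 12.3 and 59.0 in the mutant. The chromosome II group had medians of 102.9 and 564 in wildtype against 18.02, 3.35 and 26.3 in the mutant. The second chromosome IV group had 43.6 and 244 in wildtype against 2.35, 1.12 and 9.75 in the mutant. Of the genes that fell, 5 are in the chromosome II group, 5 in the first chromosome IV group and 0 in the second, where all 9 genes still had wildtype above mutant and 4 reached the minimum through wildtype alone. The median log2 fold changes were -4.03 in the first chromosome IV group, -4.30 in the chromosome II group and -4.62 in the second chromosome IV group.

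The order of the 28 equal-length genes was also shared between libraries. Across these genes Spearman's rank correlation was 0.95 between the wildtype libraries, 0.77 to 0.88 between a wildtype and a mutant library, and 0.59 to 0.79 between mutant libraries. These genes share each library and are near-identical copies, so reads may be split among them or assigned to more than 1, and values of single msp genes are uncertain in that respect. How reads with several matches were counted is not given in the sources used here.

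**Figure D3:**
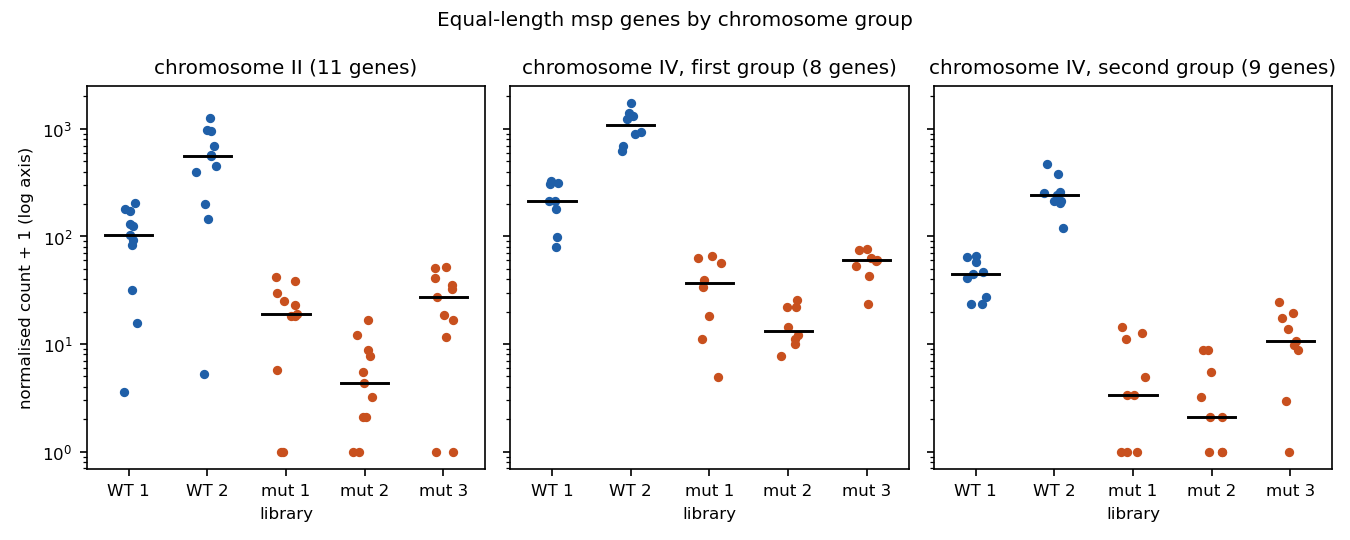
Normalised count plus 1 (log axis) of the 28 msp genes of equal length in each library, for the 3 groups along the genome; points are genes and bars are medians. In each group the wildtype libraries (blue) lie above the mutant libraries (orange), and the second chromosome IV group is the lowest in all 5 libraries.

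The smaller sperm-specific families followed the msp genes. In the ssq family all 4 genes lie on chromosome IV and all were measured. The highest was ssq-4 (WBGene00006053, 5016479 to 5017766, plus strand), with normalised counts of 199.7 and 999 in wildtype against 20.4, 14.5 and 22.4 in the mutant. It fell by 4.50 on the log2 scale (SE 0.84, limma adjusted p = 0.0385), the smallest adjusted p of the set. In the annotation 54.5% of its exon bases are shared with T28H11.7, so reads on those bases cannot be told from that gene's.

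Next was ssq-2 (WBGene00006051, 4996142 to 4997559, plus strand), at 123.8 and 956 in wildtype, compared with 30.5, 24.6 and 19.5 in the mutant. Its log2 fold change of -3.76 (SE 0.95) just missed the threshold (limma adjusted p = 0.0501). The log2 fold changes of ssq-1 and ssq-3 were -3.72 and -3.43. The 4 genes had no overlap between groups, and in the mutant libraries they ranged from 4.46 to 30.5.

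For sss-1 (WBGene00006056, chromosome IV, 9892739 to 9893749, minus strand) the normalised counts were 105.5 and 500.4 in wildtype against 7.05, 3.35 and 21.4 in the mutant. It fell by 4.65 on the log2 scale (SE 1.11, limma adjusted p = 0.0467). The other class S gene, sss-2, which is annotated as a pseudogene on chromosome V, had 27.04 and 102.0 in wildtype against 4.70, 2.23 and 10.7 in the mutant (log2 fold change -3.16, SE 1.11, adjusted p = 0.0904). In both genes mutant replicate 3 was the highest of the mutant libraries.

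Of the 12 ssp genes, 5 were measured and 0 passed the limma test. DESeq2 called 4 of the 5 lower, against 11.6% of all genes. The highest levels were those of ssp-9 (WBGene00006038, chromosome IV, 4994371 to 4994700, minus strand) and ssp-11 (WBGene00006040, chromosome IV, 4999485 to 4999814, minus strand), which share all their values: 37.5 and 306 in wildtype against 8.62, 1.12 and 12.7 in the mutant (log2 fold change -4.06, SE 1.34, adjusted p = 0.0803). Their separate levels are therefore unknown. The log2 fold changes of ssp-16, ssp-37 and ssp-10 were -4.17, -3.01 and -2.72. In contrast to the rest, ssp-37 was nearly level between the wildtype libraries, at 36.6 and 44.6, with 0.783, 14.5 and 3.90 in the mutant. The 7 ssp genes below the minimum all had higher means in wildtype, and 3 of them, ssp-31, ssp-32 and ssp-36, had no mutant read.

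The msd genes were low, and 0 of 2 measured genes passed in limma. For msd-4 (WBGene00016447, chromosome III, 4868414 to 4868743, minus strand) the normalised counts were 13.95 and 98.8 in wildtype, compared with 2.35, 0 and 0 in the mutant (log2 fold change -4.69, SE 1.299, adjusted p = 0.0577). For msd-2 (WBGene00009682, chromosome IV, 10029083 to 10029412, plus strand) they were 10.5 and 88.2 against 10.2, 1.12 and 0 (log2 fold change -3.48, SE 1.51, adjusted p = 0.144). In msd-2, wildtype replicate 1 and mutant replicate 1 were almost equal, and all of its exon bases are shared with F44D12.16. The remaining genes, msd-1 and msd-3, share all values, 7.85 and 69.1 in wildtype against 0 in the mutant, at least 37.8 times higher in wildtype, and at least 8.37 times without wildtype replicate 2. This pair also enters the counts and sums as 2 genes.

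Compared per kb of exon, the msp genes stood above the other families in wildtype. Median normalised counts per kb in wildtype replicates 1 and 2 were 241 and 1469 for the 27 measured msp genes, 85.1 and 741 for ssq, 81.2 and 322 for ssp, 74.0 and 335 for sss, 37.0 and 283 for msd and 24.1 and 18.03 for spe. In mutant replicates 1 to 3 the msp medians per kb were 44.9, 17.4 and 60.9 and the spe medians 27.7, 31.9 and 12.9. In mutant replicate 2 the median of the spe genes was thus above that of the msp genes.

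None of the measured spe genes fell in the limma test. Their summed share of reads was 0.00784% and 0.00637% in wildtype against 0.0252%, 0.0123% and 0.0143% in the mutant, and much of the mutant share was spe-15. Without it the other 20 genes took 0.00559% and 0.00573% in wildtype against 0.00522%, 0.00631% and 0.00394% in the mutant libraries, so their shares overlapped. Of 11 measured genes, 1 rose in limma, where 6.97% of all genes tested rose. Wildtype lay wholly above mutant for 1 gene, spe-11, and mutant wholly above wildtype for 2 genes, spe-15 and spe-27, where 26.5% and 30.1% of all tested genes show these patterns. Both spe-11 and spe-27 had reached the minimum in 1 group alone and so had to differ.

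**Figure D4:**
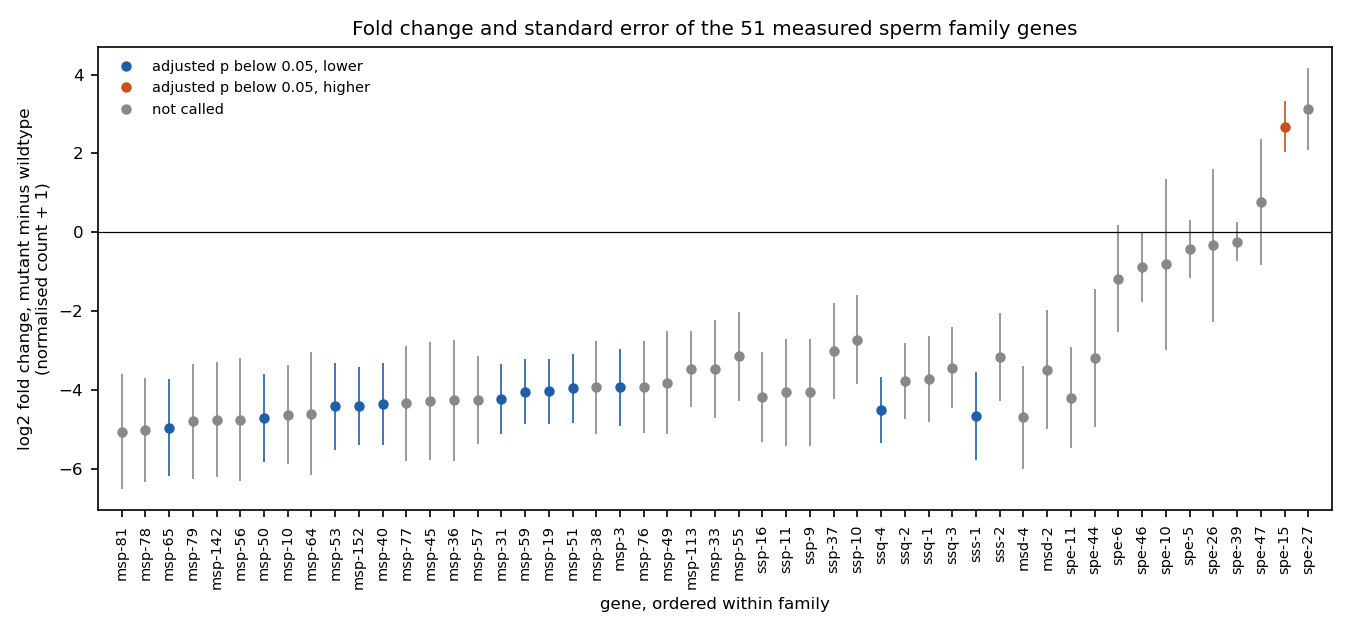
Log2 fold change (mutant minus wildtype, on log2(normalised count + 1)) of the 51 measured genes, ordered within family. Points are limma estimates and lines are 1 standard error either side; colour marks an adjusted p below 0.05. The 40 msp, ssp, ssq, sss and msd genes lie between -5.05 and -2.72, and the 11 spe genes spread from -4.19 to 3.13.

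The member with the most spe reads in the mutant was spe-15 (WBGene00004969, chromosome I, 1446497 to 1465358, plus strand). It encodes an unconventional myosin that helps divide the contents of budding spermatids. Its normalised counts were 202 and 70.1 in wildtype against 1148, 453 and 873 in the mutant. All mutant libraries were above both wildtype libraries, and it rose by 2.68 (SE 0.65, limma adjusted p = 0.0471). Without wildtype replicate 2 the log2 fold change was 1.92 and did not pass (adjusted p = 0.181). The other member with a role in the cytoskeleton and division is spe-26, which encodes a kelch-repeat protein, with 15.7 and 20.2 in wildtype, compared with 43.9, 73.7 and 0 in the mutant, so that the groups overlapped.

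Genes for the membranous organelles and fibrous bodies, the structures that package MSP in spermatocytes, overlapped between wildtype and mutant. The trafficking gene spe-39 (WBGene00004975, chromosome V, 6785451 to 6787864, plus strand) had 186 and 137 in wildtype against 110.4, 137 and 163 in the mutant. Its groups overlapped, with a log2 fold change of -0.24 (SE 0.50, limma adjusted p = 0.757). The gene spe-5 (WBGene00004959, chromosome I, 5101665 to 5103476, minus strand), which encodes a subunit of the vacuolar proton pump, had 146 and 45.7 in wildtype against 49.3, 72.5 and 62.4 in the mutant (log2 fold change -0.42, SE 0.73, adjusted p = 0.708). The palmitoyltransferase gene spe-10 had 4.36 and 100.9 against 32.1, 70.3 and 0.

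Genes that control sperm activation, the step by which a round spermatid becomes a crawling sperm, were low and mixed. In normalised counts the casein kinase gene spe-6 had 16.6 and 15.9 in wildtype against 0.783, 24.6 and 8.77 in the mutant. For spe-46 the values were 29.7 and 42.5 against 33.7, 14.5 and 13.6, and for spe-47, which encodes a protein with an MSP domain, 19.2 and 3.19 against 1.57, 23.4 and 60.4. None of these 3 passed the limma test, and all 3 had overlapping groups.

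A small activation gene, spe-27, had 1.74 and 0 in wildtype, compared with 13.3, 14.5 and 12.7 in the mutant, with 43 reads against 2. Its log2 fold change was 3.13 (SE 1.04, limma adjusted p = 0.0804). It passed the minimum through the mutant libraries alone, and 13.4% of its exon bases are shared with C06E7.88. The tyrosine kinase gene spe-8, which acts upstream in activation, had 102.0 in wildtype replicate 2 and 0 in the other 4 libraries. Of the remaining activation genes, spe-12 reached 30.8, spe-4 14.9 and spe-19 3.35 in their highest library.

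Genes that sperm need at fertilisation were close to absent. Reads of spe-9, which encodes a sperm surface protein with EGF repeats, gave normalised counts of 14.5 and 3.90 in mutant replicates 2 and 3 and 0 elsewhere. The channel gene spe-41 lay between 0 and 7.80, spe-42 had 6.11 in wildtype replicate 1 and 0 elsewhere, and spe-38 had no read. At 0 to 13 reads a library, no difference between groups could be detected for these 4 genes.

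The remaining spe genes stand at the start and the end of the sperm programme. The transcription factor gene spe-44, which turns on sperm genes in spermatocytes, had 48.8 and 13.8 in wildtype against 0, 25.7 and 0 in the mutant (log2 fold change -3.18, SE 1.74, limma adjusted p = 0.225). The groups overlapped through mutant replicate 2. The gene spe-11, which encodes a sperm-supplied protein needed by the embryo, had 23.5 and 79.7 in wildtype against 6.27, 0 and 0.975 in the mutant. Its log2 fold change of -4.19 (SE 1.28, adjusted p = 0.0686) lay in the range of the msp genes, and of the 11 measured spe genes it was the only one called lower by DESeq2 (adjusted p = 0.0337).

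Other genes of sperm, listed from their known roles, included members that fell with the msp genes. Of 21 accessory genes in the table, such as sperm phosphatases, PDZ-domain proteins and the small nspd peptides, 9 were measured and 2 fell in limma, where 5.92% of all genes fell. The gene smz-1, which encodes a PDZ-domain protein of sperm meiosis, had normalised counts of 78.5 and 219 in wildtype against 0, 5.58 and 0.975 in the mutant, and fell by 5.81 on the log2 scale (SE 1.21, adjusted p = 0.0414). For gsp-4, which encodes a sperm phosphatase, the values were 58.4 and 178 against 0.783, 2.23 and 7.80, and it fell by 4.80 (SE 1.15, adjusted p = 0.0462). The list's median was -3.59, and 6 of its 9 measured genes had wildtype above mutant (26.5% of all genes). Of these 6, 3 had reached the minimum through wildtype alone and so had to differ, namely smz-1, gsp-4 and nspd-10.

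Of 20 measured genes that control sperm fate, 4 fell and 0 rose in limma, where 5.92% and 6.97% of all genes did. Of the 4, alg-4, fog-2 and fog-1 had reached the minimum through wildtype alone and so had to differ. The Argonaute gene alg-4, which works with alg-3 in spermatogenesis, had 34.9 and 49.9 in wildtype, compared with 0 in every mutant library, at least 44.4 times higher in wildtype (adjusted p = 0.0384). The Pumilio-family gene puf-8 had 385 and 125.4 against 9.40, 10.05 and 9.75, and fell by 4.36 (SE 0.83, adjusted p = 0.0396). The F-box gene fog-2, which permits spermatogenesis in hermaphrodites, had 59.3 and 55.2 against 0, 0 and 2.92, and fell by 5.21 (SE 1.12, adjusted p = 0.0426). The fourth was fog-1. Of these 20 genes, 4 were higher in wildtype replicate 2 than in replicate 1.

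The genes that receive the MSP signal were tested from a list of 21 receptors, sheath and oocyte genes, all of them measured. In limma 3 rose and 2 fell, against 6.97% and 5.92% of all genes, and the median log2 fold change was 0.13, as over all genes tested. The adenylyl cyclase gene acy-4, which acts in the sheath, had normalised counts of 60.2 and 3.19 in wildtype against 699, 471 and 356 in the mutant, and rose by 4.94 (SE 1.12, adjusted p = 0.0440). The kinase gene mbk-2 had 1049 and 743 against 2461, 4266 and 4462, and rose by 2.03 (SE 0.47, adjusted p = 0.0449). The Eph receptor gene vab-1, which encodes an oocyte receptor of MSP and also works in neurons, was the third gene to rise. Which cells gave the reads of these 3 genes was not tested. Pan-neuronal genes went the same way, with mutant above wildtype in 21 of 23, against 30.1% of all genes tested. The oocyte gene oma-1 had 298 and 239 against 8.62, 14.5 and 0, and fell by 5.66 (SE 1.34, adjusted p = 0.0457), and its relative oma-2 fell as well.

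In the list of 10 gonadal sheath and spermatheca genes, 0 passed in limma. DESeq2 called 1 higher and 1 lower, against 15.4% and 11.6% of all genes. The smallest limma p-value was that of lim-7, a homeobox gene of the sheath, at 252 and 26.6 in wildtype against 786, 721 and 1625 in the mutant (log2 fold change 3.54, SE 0.95, adjusted p = 0.0550). Its log2 fold change was the highest of the list, whose median was -0.72, with 7 of the 10 genes below 0. Which cells gave the lim-7 reads was not tested.

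Marker genes of other cell types also differed in their share of reads. The 35 germline and oocyte genes took 0.406% and 0.169% of the reads in wildtype against 0.0478%, 0.0729% and 0.0357% in the mutant. While 5.92% of all genes tested fell in limma, 16 of these 35 genes did. Among these were the eggshell genes cpg-1 and cpg-2 and the oocyte gene puf-3: cpg-1, for example, had normalised counts of 2241 and 1537 in wildtype, compared with 123, 196 and 78.0 in the mutant. The log2 fold changes of cpg-1, cpg-2 and puf-3 were -3.90 (SE 0.53), -4.93 (SE 0.73) and -4.73 (SE 0.73), all with a limma adjusted p of 0.0382. The 13 muscle genes took 2.59% and 5.25% in wildtype against 0.975% to 1.38% in the mutant, the 14 epidermal genes 8.58% and 5.74% against 0.195% to 0.966%, and the 13 intestinal genes 0.770% and 0.628% against 0.0466% to 0.199%. The epidermal share rested on a few abundant genes: the median normalised count of its 13 measured genes was 129.95 and 297 in wildtype against 156, 429 and 178 in the mutant libraries. Wildtype lay above mutant in 4 of the 13, a pattern shown by 26.5% of all genes tested. The pan-neuronal genes ran the other way, with 8 of 23 rising in limma, where 6.97% of all genes tested rose. The part of these differences in the sperm gene result was not tested.

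Within a genotype, the sperm families and the oocyte genes ranked the libraries differently. All 40 measured msp, ssp, ssq, sss and msd genes were higher in wildtype replicate 2 than in replicate 1, by 1.22 to 9.93 times with a median of 5.54, while 40.1% of all tested genes were higher and 57.5% lower. The accessory sperm genes were higher there too, 9 of 9 measured genes, with a median ratio of 2.68 over the 8 that had a read in wildtype replicate 1. By contrast 31 of the 35 germline and oocyte genes were lower in wildtype replicate 2 (median ratio 0.529), as were 20 of the 23 pan-neuronal genes (median ratio 0.139). Most of the 20 measured genes that control sperm fate were lower there as well, with 4 higher (median ratio 0.480). Muscle genes were higher there in 11 of 13 (median ratio 2.21). Of the 11 spe genes, 4 were higher and 7 lower, and the largest ratio among them was that of spe-10. With 1 pair of libraries this difference has no replicate check.

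**Figure D5:**
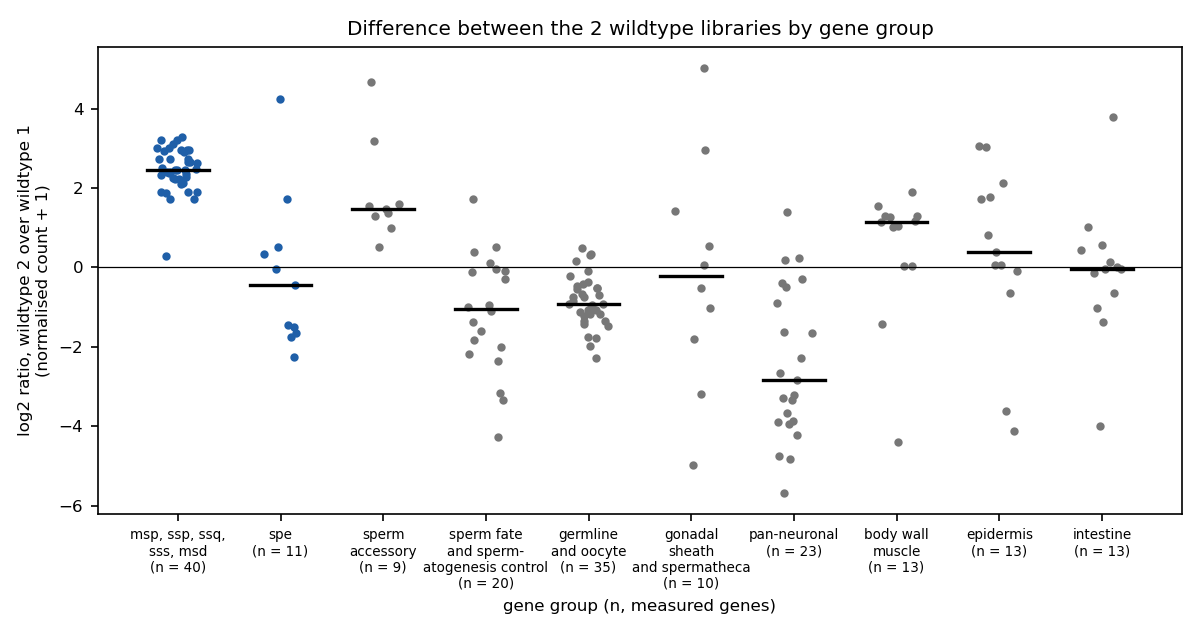
Difference between the wildtype libraries, as the log2 ratio of replicate 2 over replicate 1 on normalised count plus 1, for the measured genes of each group; points are genes and bars are medians. The msp, ssp, ssq, sss and msd genes all lie above 0, where the median ratio of normalised counts was 5.54, while most germline and oocyte genes (0.529) and most pan-neuronal genes (0.139) lie below 0. Most genes that control sperm fate (0.480) also lie below 0.

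The mutant libraries differed among themselves in the same crossed way. By normalised count, 25 of the 40 measured msp, ssp, ssq, sss and msd genes were highest in mutant replicate 3 and 26 were lowest in mutant replicate 2. Of the 35 germline and oocyte genes, 25 were highest in mutant replicate 2 and 22 were lowest in mutant replicate 3. In the summed shares, the sperm families and the germline list thus ranked the mutant libraries in different orders, 0.0116%, 0.00378% and 0.0115% against 0.0478%, 0.0729% and 0.0357% for replicates 1 to 3. By share the sperm families were nearly level between mutant replicates 1 and 3, while their summed normalised counts there were 667 and 976. Which of these 2 is higher thus depends on the scaling.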

How the data were processed

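RNA of 2 wildtype and 3 thoc-5(wy822) libraries of sorted neurons was turned into cDNA (SMARTer v4) and sequencing libraries (Nextera XT), per the labels' protocols. Neither kit marks strand. The submitters' processing notes name Trim Galore, STAR 2.4.2a, DESeq2 and the ce10 build, and which counter and annotation followed is not given in the sources used here. Each library's deposited column is a signal at or above 0, in which the authors had scaled gene counts by that library's size factor. Their log2 fold change, its standard error and test statistic (each a score here), p-value and adjusted p-value are also deposited, per the file headers. Dividing by the value of 1 read gave whole numbers for 100% of values in each library (within 1e-04 reads), and these recovered reads went into the count tests.

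The main test was limma 3.58.1 (with a trend) in R 4.3.3 on log2(normalised count + 1), over the 13787 genes that reached a normalised count of 10 in 2 or more libraries, two-sided, with Benjamini-Hochberg adjustment at 0.05. Fold changes are mutant minus wildtype on that scale and understate changes of low genes. Alternatives were edgeR 4.0.16 and DESeq2 1.42.0 on the recovered reads, the authors' p-values, pseudocounts of 0.5 and 8, quantile and upper quartile scaling, a filter of 50 and none, a replicate block and leaving out each library. Where this left a lone wildtype library, its spread was taken to equal that of the mutants. Scripts were tested on simulated counts.

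For shares of reads, 95% intervals are exact (Clopper-Pearson). A fold against a group at 0 uses a floor of 3 reads over that group. Reads have no molecular identifiers, so both cover counting error only. The labels do not say that replicate libraries were separate cultures, and p-values therefore reflect the spread among these samples, which may be technical. Positions come from the Ensembl WBcel235 annotation, by name for 69 of 74 genes and through RefSeq symbols of the same assembly for the other 5. No position in ce10 and no sequence is given.

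The 74 genes and the lists were chosen with earlier results of these data known. Genes named are, per family, called members (the 6 with the smallest p where more were called), the 2 with the highest mean, the 3 largest rises and falls with a mean of 50 or more, and the 2 or 3 smallest p of each list. The other members, vab-1, oma-2, fog-1 and those in the closing section were named after their values were seen. The lists hold 188 entries, of which 172 are in the table. Results for 2 genes are not reported here.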

Additional observations from a re-analysis of the deposited data

How the results depend on the processing

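Over all genes, 961 rose and 816 fell in limma. Rises and falls numbered 1737 and 1480 with a pseudocount of 8, 1573 and 1425 with quantile scaling, 2123 and 1595 with DESeq2, 2063 and 1654 in the authors' deposited table, and 0 and 0 with edgeR, where 3869 genes had an unadjusted p below 0.05. Without a filter 533 rose. Leaving out 1 library gave 0 to 2167 rises and 0 to 480 falls. Of the members of the sperm families, 12 fell and 1 rose. The falls numbered 6 with a pseudocount of 0.5 and without a filter, 31 with a pseudocount of 8, 22 with quantile scaling, 39 with DESeq2, 43 in the authors' deposited table and 0 with edgeR. The single rise, spe-15, became 0 with a pseudocount of 0.5, without a filter and with edgeR. Leaving out 1 library gave 0 to 19 falls and 0 to 1 rise. The median log2 fold change of the members was -4.03, with -2.99 at a pseudocount of 8 and -5.23 to -2.87 when a library was left out. The median over all genes was 0.13, with 0.04 under upper quartile scaling and -0.02 under quantile scaling, where the members' medians were -4.11 and -4.31. The causes were not tested. None of the 13 called members changed sign under any alternative run.

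Replicate numbers are shared between the groups, and the labels do not say that a number marks a shared litter, batch or day. Same-numbered libraries correlated in their deviations at 0.0093 and 0.11, but with 2 wildtype libraries, whose deviations mirror each other, this cannot show whether the numbers pair the samples, and no pairing was assumed. A fit with the replicate number as a block, in which mutant replicate 3 has no partner, gave 0 rises and 0 falls over all genes and over the members. In that fit 36 of the 51 members and 3951 of the 13787 genes tested had an unadjusted p below 0.05.

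Signs changed in 4 spe genes that passed no limma test. Leaving out 1 library gave log2 fold changes of -1.25 to 0.40 for spe-5 (the positive value without wildtype replicate 1), -0.36 to 2.08 for spe-47 (negative without wildtype replicate 2 and mutant replicate 3), -1.49 to 1.62 for spe-26 (positive without mutant replicate 3) and -2.94 to 1.31 for spe-10 (positive without wildtype replicate 2 and mutant replicate 3). The block gave -0.22 for spe-47, 1.62 for spe-26 and 1.06 for spe-10. For spe-26 the value was also 0.32 with a pseudocount of 8, 1.09 with edgeR, 1.12 with DESeq2 and 0.91 in the authors' deposited table.

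With 2 wildtype libraries that differ in these genes, 1 library decides much of each fold change. Depth limits the low members: 18 had reads but stayed below the minimum.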

Other observations

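Some genes now carry a spe name in the RefSeq gene table but stand in the deposited table under their sequence name, so the name rule did not take them. Of 7 such genes, spe-18 (F32A11.3), which encodes a protein of fibrous body assembly, had normalised counts of 82.0 and 219 in wildtype, compared with 0.783, 6.70 and 54.6 in the mutant. Its groups did not overlap, with wildtype above mutant as in 26.5% of all genes tested. It did not pass in limma (log2 fold change -3.89, SE 1.53, adjusted p = 0.116). Like most msp genes, spe-18 was highest in wildtype replicate 2 and, among the mutant libraries, in replicate 3. For spe-48 (Y51F10.10) the values were 914 and 1095 in wildtype against 566, 828 and 839 in the mutant. For spe-54 (F55H12.5) they were 0 and 103 in wildtype against 0, 0 and 5.85 in the mutant, so that, as for spe-8, nearly all reads came from wildtype replicate 2. The other genes, spe-36, spe-43, spe-49 and spe-51, reached at most 25.7 in any library.

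A spermathecal gene, sth-1, set wildtype replicate 2 and mutant replicate 2 apart from the rest: its normalised counts were 131 and 4262 in wildtype against 44.6, 1324 and 61.4 in the mutant. The summed msp share was the highest of the 5 libraries in wildtype replicate 2 and the lowest in mutant replicate 2, so this 1 spermathecal gene and the sperm genes did not rank the libraries alike. The list of 10 gonadal sheath and spermatheca genes was divided. In wildtype replicate 2, 5 of them were higher than in replicate 1 and 5 lower (median ratio 0.869). Among the mutant libraries, 7 of the 10 were highest in replicate 2.

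The small nspd genes, whose peptides are known from sperm, were highest in wildtype replicate 2 in each of the 9 genes with a read. For nspd-3 the normalised counts were 7.85 and 116.9 in wildtype, compared with 0, 1.12 and 6.82 in the mutant, and for nspd-5 they were 7.85 and 105.2 against 0, 0 and 0.975. They reached the minimum in too few libraries to be tested, apart from nspd-10 (log2 fold change -3.996, SE 1.38, limma adjusted p = 0.0871). These copies are similar in sequence, and reads may be split among them.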
